A study of Mus musculus with 9 samples.

Results

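The 9 genes described here encode lipocalin 2 (Lcn2), other secreted acute-phase and defence proteins (Cp, Hp, Serpina3n, A2m, Saa3 and Ptx3), the membrane metalloreductase Steap4 and the cell surface receptor Cd44, which reactive glia are known to make. They were taken by gene symbol and make up 9 of the 48679 names in the deposited table of read counts. RNA was sequenced from retinas of C57BL/6J mice of 12 weeks of age, in 9 samples that were each a pool of 6 retinas from 6 mice. In 3 RVO pools all large retinal veins had been occluded by laser after eosin Y at 200 mg/kg as a photosensitizer. In 3 control pools the same laser treatment had been set between the large vessels, and in 3 untreated pools the retinas had received no laser. Eosin Y and anaesthesia are described with the laser treatment only. Against untreated retinas they cannot be told apart from the laser. Laser-treated retinas were taken at d2, and the paper reports that part of the occluded veins re-opened within days. RVO and control retinas were fellow eyes of the same mice, so that both groups shared the photosensitizer, the laser energy and an animal with an occluded eye. The pools were of whole retina, in which fewer cells of a type and less RNA per cell cannot be told apart.

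Acute-phase proteins are best known as liver proteins whose synthesis rises during inflammation, through cytokines of the IL-6 family that act on STAT3 and through IL-1 and TNF that act on C/EBP and NF-kB factors. Astrocytes and Mueller cells, the macroglia of the retina, switch on several of the same genes after injury, and Lcn2 and Serpina3n are among the most used markers of reactive astrocytes. The secreted proteins act on iron or haem, block proteases or mark microbes and debris for uptake, and neutrophils and macrophages can make some of them as well.

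The regions before the start sites are shown because regulators of the acute-phase response, described with the lists of genes further on, can act in such regions. Whether they act in those shown was not tested. RefSeq promoter windows (build GRCm38.p6) of 250 bases before to 50 bases after a start site were given for 7 of the 9 genes, with 2 windows for Cp. A2m and Hp were not among them. The C/EBP-type motif TTGCNNAA, searched on both strands, was found in windows of 5 of the 7 genes and in 10.8% of all 32851 windows of this length. The STAT-type motif TTCNNNGAA was found in 1 of the 7 genes, Steap4, and in 8.3% of all windows, and the NF-kB-type motif GGANTTTCC in 0 of the 7 genes and in 1.25% of all windows. The windows of Serpina3n and Cd44 held none of these letters, and a match is a description of the sequence and not a binding site. The matches are in capitals in the sequences below, each 5′ to 3′ on the strand of its gene. Those of Steap4, Ptx3 and Saa3 end at or before the first annotated exon. For Lcn2 and Cp only 30 bases around the match are given, since it lay within an exon of another annotated transcript of the gene. They are at chr2:32387937-32387966 (minus strand) for Lcn2, chr3:19957168-19957197 (plus strand) for Cp, chr5:7960222-7960456 (plus strand) for Steap4, chr7:46715701-46715926 (minus strand) for Saa3 and chr3:66219637-66219886 (plus strand) for Ptx3.
Lcn2: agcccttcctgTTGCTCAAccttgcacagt
Cp: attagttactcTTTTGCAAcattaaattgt
Steap4: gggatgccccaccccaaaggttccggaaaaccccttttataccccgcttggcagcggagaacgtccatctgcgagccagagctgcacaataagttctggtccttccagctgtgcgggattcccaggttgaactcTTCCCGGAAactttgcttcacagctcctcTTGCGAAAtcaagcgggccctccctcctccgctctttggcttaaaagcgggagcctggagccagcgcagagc
Saa3: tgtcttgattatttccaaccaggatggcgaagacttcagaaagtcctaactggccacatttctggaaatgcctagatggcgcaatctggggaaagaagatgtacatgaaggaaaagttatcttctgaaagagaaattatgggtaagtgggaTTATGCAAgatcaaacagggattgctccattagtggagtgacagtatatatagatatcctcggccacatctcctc
Ptx3: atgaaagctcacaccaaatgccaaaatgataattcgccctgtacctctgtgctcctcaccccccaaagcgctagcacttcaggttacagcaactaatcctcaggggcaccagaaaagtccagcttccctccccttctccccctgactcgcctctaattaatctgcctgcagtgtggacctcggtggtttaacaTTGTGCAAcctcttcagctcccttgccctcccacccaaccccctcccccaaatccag
In Steap4 the STAT-type match began 116 bases before the start site and the C/EBP-type match 87 bases before it. The C/EBP-type matches of Ptx3, Saa3 and Lcn2 began 57, 99 and 216 bases before the start site, and that of Cp 70 bases before the later of its start sites.

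Total counts were 21022997 to 28993921 in RVO pools, 18897218 to 23419497 in control pools and 12377572 to 15245869 in untreated pools, so that genes of low expression were measured least precisely in untreated retinas. Replicates differed by more than sampling noise. Their chi-square per degree of freedom was 3.15 to 54.1, and it was highest between RVO replicates 1 and 2. Rod markers, which define retina, summed to 77805 to 79925 CPM in untreated, 51338 to 63217 CPM in control and 41370 to 45516 CPM in RVO pools, and 5 of 5 were called lower after RVO, 3 of 5 after control treatment and 2 of 5 in RVO than in control. The part of this shift in the levels of the 9 genes was not tested. Lens crystallins and other lens markers summed to 3406 CPM in RVO replicate 2 and 1830 CPM in control replicate 1, against 1.89 to 289 CPM in the other pools. Levels are given as CPM, counts per 1e6 counts scaled by edgeR's TMM factors. Differences were tested with edgeR's quasi-likelihood test, fitted to 2 groups at a time, and a gene was counted as higher or lower at a Benjamini-Hochberg adjusted p under 0.01 over all genes tested.

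All 9 genes were higher in RVO than in untreated retinas, by between 2.75-fold (Cp) and 114-fold (Lcn2) where both groups had enough counts for a fold change. This is 9 of 9 genes, where 27.4% of all 16380 genes tested were called higher (34.4% with a threshold of 0.05). Saa3 and Hp, with 0 and 2 counts over all untreated pools, passed the filter for low counts through the RVO pools. Hp passed it through the control pools in the next comparison. For Saa3 and Hp a higher call and separate pools were thus close to fixed in advance. For none of the 9 did RVO and untreated pools overlap, and 37.8% of all genes were higher in the same way. After control laser treatment 7 of the 8 genes that passed the filter for low counts were called higher than in untreated retinas, where 27.2% of all 16066 genes tested were. At an adjusted p under 0.05 it was 8 of 8 (33% of all genes). The control and untreated pools did not overlap for any of the 9 genes, against 36.8% of all genes tested. Between RVO and control retinas, which differed by design in where the laser was set, 3 of 9 genes were called higher in RVO (A2m, Cd44 and Steap4), where 2.7% of all 16874 genes tested were. With 0.05 as the threshold, 8 of 9 genes were higher, as were 17.5% of all genes, and the same 8 genes showed no overlap between the groups, as did 27.3% of all genes in that direction. The exception was Cp.

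**Figure D1:**
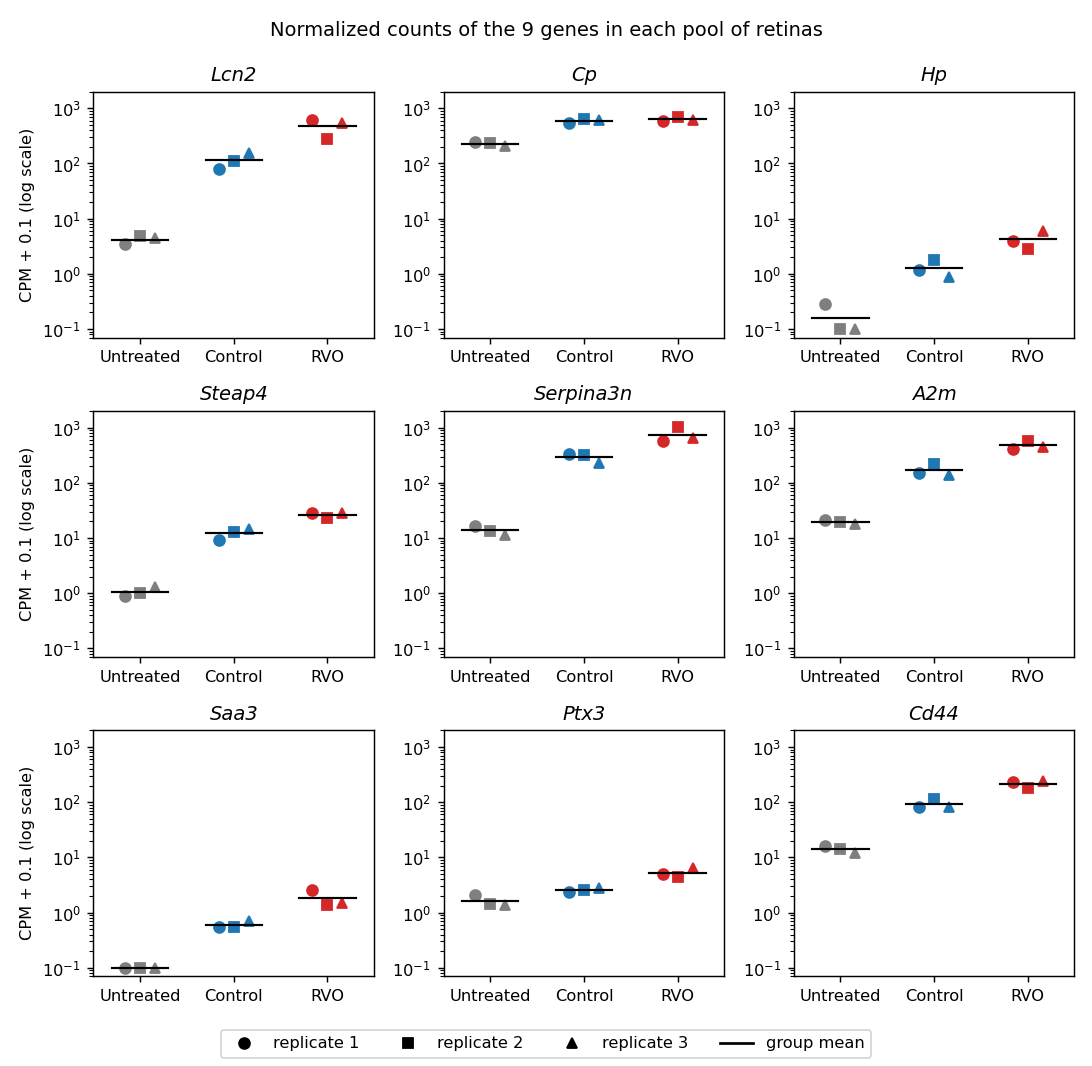
Normalized counts of the 9 genes, with CPM + 0.1 on a log axis, in the 3 untreated, 3 control and 3 RVO pools. Symbols stand for replicates and lines for group means, and values at 0.1 are counts of 0. Control pools lie above untreated pools in every panel, and RVO pools lie above control pools in every panel but that of Cp.

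Lcn2 (chr2:32384633-32388252, minus strand, build GRCm38) encodes a secreted carrier that captures iron-loaded bacterial siderophores. Its level was 602, 281 and 531 CPM in RVO replicates 1, 2 and 3, it was 78.5, 109 and 157 CPM in the control pools, and it was 3.31, 4.67 and 4.28 CPM in the untreated pools. The groups were separate, and RVO replicate 2 was the lowest of the RVO pools. Relative to untreated retinas, the log2 fold change was 6.83 ± 0.34 (SE) after RVO, the 69th highest of 16380 genes (edgeR, Benjamini-Hochberg adjusted p = 4.629e-06), and 4.78 ± 0.26 after control laser treatment (adjusted p = 4.449e-08). RVO exceeded control by 2.04 ± 0.34, or 4.11-fold (edgeR, adjusted p = 0.01025), which missed the threshold.

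Cp encodes ceruloplasmin, a copper-containing ferroxidase that oxidises iron as it leaves cells through ferroportin (chr3:19957054-20009145, plus strand). It was well expressed in untreated retinas, with 245, 235 and 210 CPM, and had 531, 635 and 615 CPM in control pools and 591, 696 and 624 CPM in RVO pools. Both laser groups lay above the untreated pools, while the RVO and control pools overlapped. Its log2 fold change against untreated retinas was 1.46 ± 0.089 after RVO (edgeR, adjusted p = 9.99e-06) and 1.35 ± 0.080 after control treatment (adjusted p = 8.388e-08). The value was 0.10 ± 0.094 between RVO and control (edgeR, adjusted p = 0.432), and Cp had the smallest fold change of the 9 genes against untreated retinas after RVO. An exon of Cp shares 108 bases with the antisense gene Hps3, and the sources used here do not state whether reads were counted by strand. Hps3 itself had log2 fold changes of -0.07, -0.04 and -0.04 in the 3 comparisons.

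Hp encodes haptoglobin, the plasma protein that binds free haemoglobin (chr8:109575128-109579172, minus strand), and its counts were low. They were 121, 63 and 130 in the RVO pools, 23, 33 and 18 in the control pools and 2, 0 and 0 in the untreated pools, which is 3.90, 2.71 and 5.77 CPM, 1.05, 1.68 and 0.760 CPM, and 0.179, 0 and 0 CPM. The 3 groups did not overlap, but the untreated level rested on 2 reads in all. The ratio of summed normalized counts to untreated pools was 78.7 after RVO (95% counting interval 21.6 to 652.7) and 21.8 after control treatment (5.83 to 183.6), and both differences were called (edgeR, adjusted p = 0.0001689 and 0.0002919). Without untreated replicate 1 the untreated count was 0, so that no ratio can be given. RVO exceeded control by 1.84 ± 0.38 on the log2 scale (edgeR, adjusted p = 0.01389).

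Steap4 encodes a metalloreductase that reduces iron and copper (chr5:7960457-7982213, plus strand). RVO pools had 28.0, 22.8 and 28.1 CPM, control pools 9.08, 12.8 and 14.5 CPM and untreated pools 0.805, 0.918 and 1.19 CPM. The groups were well apart, and within the RVO group replicate 2 was again the lowest. The log2 fold change was 4.72 ± 0.19 for RVO and 3.60 ± 0.24 for control against untreated retinas (edgeR, adjusted p = 2.245e-06 and 1.859e-07). RVO exceeded control 2.17-fold, a call close to the threshold (edgeR, adjusted p = 0.009959).

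Among the protease inhibitors, Serpina3n encodes a serpin that inhibits granzyme B and leukocyte proteases (chr12:104406729-104414329, plus strand). It had 568, 1012 and 663 CPM in RVO pools, 330, 314 and 227 CPM in control pools, and 16.3, 13.2 and 11.3 CPM in untreated pools. No pools overlapped between groups, and RVO replicate 2, the lowest RVO pool for Lcn2, was the highest for Serpina3n. The log2 fold change was 5.77 ± 0.26 for RVO and 4.41 ± 0.15 for control against untreated retinas (edgeR, adjusted p = 3.134e-06 and 3.386e-09). The difference between RVO and control was 1.36 ± 0.23, or 2.57-fold (edgeR, adjusted p = 0.01069). Serpina3n belongs to a cluster of close paralogs among which reads can be split. Of 10 others listed, only Serpina3g could be tested against untreated retinas, at 1.03 ± 0.33 (SD, n = 3), 1.74 ± 0.62 and 0.313 ± 0.072 CPM in RVO, control and untreated pools.

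A2m encodes alpha-2-macroglobulin, which traps proteases of all classes and is cleared by the receptor Lrp1 (chr6:121635376-121679227, plus strand). Its levels were 414, 573 and 448 CPM in RVO pools, 150, 223 and 137 CPM in control pools and 21.1, 19.3 and 18.0 CPM in untreated pools. The lowest RVO pool was above the highest control pool, and RVO replicate 2 was the highest of all. Against untreated retinas the log2 fold change was 4.61 ± 0.14 after RVO and 3.11 ± 0.17 after control treatment (edgeR, adjusted p = 1.282e-06 and 4.596e-08). RVO exceeded control 2.81-fold, with a log2 fold change of 1.49 ± 0.20 (edgeR, adjusted p = 0.008599).

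Saa3 encodes a serum amyloid A protein made outside the liver (chr7:46711998-46715700, minus strand). It was undetected in the untreated pools, with 0 counts in each. There were 10, 9 and 14 counts in the control pools (0.456, 0.457 and 0.591 CPM) and 77, 30 and 32 counts in the RVO pools (2.48, 1.29 and 1.42 CPM). Measured against a floor of 3 counts per library, the level in RVO pools was at least 7.33-fold higher than in untreated pools, and that in control pools at least 2.12-fold. The RVO difference was called (edgeR, adjusted p = 0.0006744), whereas the control difference was not tested because the gene did not pass the filter. RVO exceeded control by 1.79 ± 0.34 on the log2 scale, or 3.46-fold, with RVO replicate 1 the highest pool (edgeR, adjusted p = 0.01293).

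Ptx3 encodes the long pentraxin 3, an opsonin that binds C1q and microbial surfaces (chr3:66219910-66225805, plus strand). Its level was 4.87, 4.29 and 6.34 CPM in RVO pools, 2.28, 2.44 and 2.70 CPM in control pools and 1.97, 1.30 and 1.26 CPM in untreated pools. Of the 8 genes tested it had the smallest difference after control laser treatment, 0.71 ± 0.24 on the log2 scale, which was not called although the pools were separate (edgeR, adjusted p = 0.01797). After RVO it was 3.43-fold higher than in untreated retinas, with a log2 fold change of 1.78 ± 0.26 (edgeR, adjusted p = 0.0005199). The difference between RVO and control was 1.06 ± 0.20 (edgeR, adjusted p = 0.01251). Ptx3 lies within the span of the antisense gene Veph1 and shares no exon bases with it. Veph1 had log2 fold changes of -0.55, -1.01 and 0.45 in the comparisons of RVO with untreated, control with untreated and RVO with control.

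Cd44, the cell surface receptor for hyaluronan and osteopontin (chr2:102811141-102901665, minus strand), was the only membrane receptor among the 9. RVO pools had 231, 178 and 243 CPM, control pools 83.0, 116 and 82.9 CPM and untreated pools 15.9, 13.9 and 12.1 CPM. The groups did not overlap. The lowest control pool was 5.21 times the highest untreated pool, and the lowest RVO pool was 1.54 times the highest control pool. The log2 fold change was 3.95 ± 0.16 for RVO and 2.74 ± 0.14 for control against untreated retinas (edgeR, adjusted p = 2.245e-06 and 3.767e-08). RVO exceeded control 2.31-fold, or by 1.21 ± 0.17 on the log2 scale (edgeR, adjusted p = 0.00893).

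**Figure D2:**
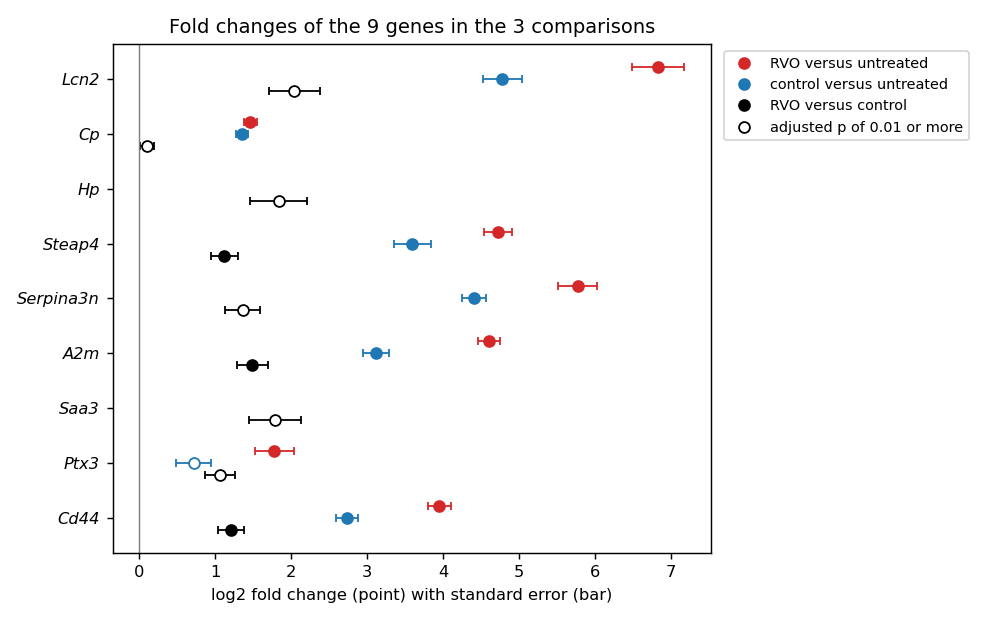
Log2 fold changes (points) with standard errors (bars) of the 9 genes in the 3 comparisons, with open symbols for adjusted p of 0.01 or more. Hp and Saa3 are left out against untreated pools, which had 2 and 0 counts of them in all. The largest value is 6.83 for Lcn2 after RVO, and all but 1 of the differences between RVO and control, that of Cp at 0.10, exceed 1.

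The calls between RVO and control retinas depended on single libraries, for the 9 genes as for all genes. Without RVO replicate 2 the count of the 9 genes called higher was 8 in place of 3. Without RVO replicate 1, RVO replicate 3 or any 1 of the 3 control replicates it was 0. Of all genes, 2942 of 17199 were called higher without RVO replicate 2. Only 29 of 17149 were called higher without RVO replicate 1, 1 of 17247 without control replicate 1, and 0 without each of the others. The loss of calls was thus not particular to the 9 genes. In each of these fits the log2 fold changes of the 9 genes kept their sign, and 8 of 9 had an unadjusted p under 0.05. In RVO replicate 2, Lcn2, Hp, Steap4, Saa3, Ptx3 and Cd44 had the lowest level of the 3 RVO pools, and Cp, Serpina3n and A2m the highest. Lcn2 and Serpina3n are an example. Their CPM ratio was 1.06, 0.278 and 0.801 in RVO replicates 1, 2 and 3, it was 0.238, 0.347 and 0.693 in the control pools, and it was 0.203, 0.353 and 0.379 in the untreated pools. Thus the ratio of RVO replicate 2 lay within the range of the control pools. Lcn2 was 5.24, 2.45 and 4.62 times the control mean in RVO replicates 1, 2 and 3, whereas Serpina3n was 1.96, 3.49 and 2.28 times it and A2m 2.44, 3.37 and 2.63 times.

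**Figure D3:**
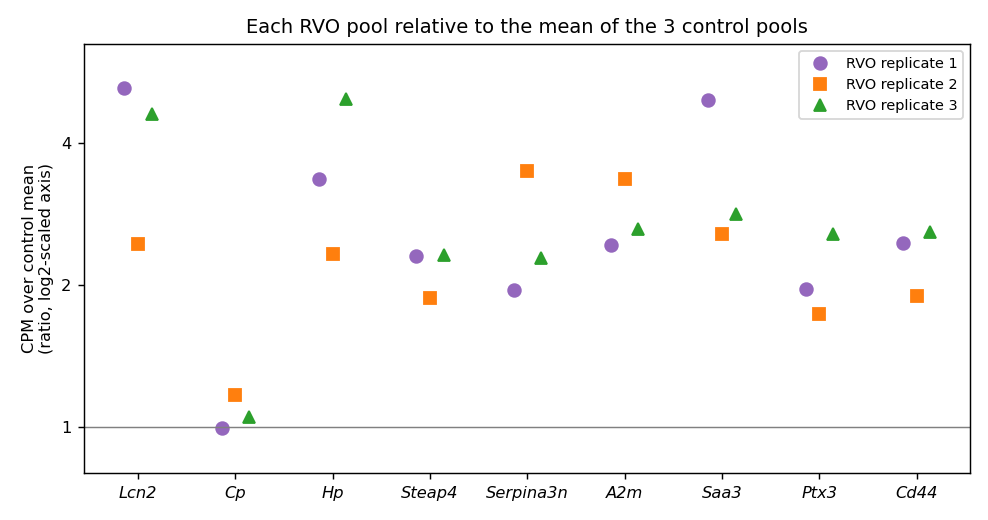
CPM of each gene in each RVO pool, divided by the mean of the 3 control pools, on an axis scaled by log2. RVO replicate 2 is the lowest point for 6 genes and the highest for Cp, Serpina3n and A2m, and Lcn2 spans 2.45 to 5.24.

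Marker lists of other cell types also moved with the groups. Neutrophil markers summed to 99.1, 47.2 and 105 CPM in RVO replicates 1, 2 and 3, to 9.04 to 24.7 CPM in control pools and to 0.612 to 1.68 CPM in untreated pools. Their 5 tested genes of 10 were all called higher after RVO, and 4 of 4 after control treatment. Between RVO and control 0 of 5 passed 0.01 and 5 of 5 passed 0.05 (edgeR, Benjamini-Hochberg adjusted). Of the defining neutrophil genes, Elane was at 0 in all RVO pools, and Ly6g, Mpo, Elane and Cxcr2 were at 0 in all untreated pools. S100a8, S100a9 and Cxcr2 had 3, 1 and 0 counts over all untreated pools and passed the filter for low counts through the laser-treated pools. A higher call against untreated retinas was thus close to fixed in advance for these genes. The markers not tested had 0 (Elane) to 14 (Camp) counts over all RVO pools. Monocyte and macrophage markers summed to 293 to 370 CPM after RVO, 101 to 137 CPM after control treatment and 15.1 to 20.5 CPM in untreated retinas, with 7 of 9 called higher in RVO than in untreated retinas, 6 of 8 in control than in untreated and 4 of 9 in RVO than in control. Ly6c2 and Ccr2 had 0 and 1 counts over all untreated pools, so that they too passed the filter through laser-treated pools. Endothelial markers summed to 144 to 149 CPM in untreated, 288 to 320 CPM in control and 134 to 245 CPM in RVO pools, with 5 of 5 called higher after control treatment and 3 of 5 after RVO. Pericyte and fibroblast markers summed to 82.8 to 121 CPM over all 9 pools, with 3 of 7 called higher and 1 lower after RVO and 2 of 6 higher after control treatment. The part of these cells in the levels of the 9 genes was not tested. Hepatocyte markers were near 0 throughout, with sums of 0.451 to 1.73 CPM and Serpina1a at 0 in every pool.

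Markers of resident glia moved in different directions. Mueller cell markers summed to 4525 to 4792 CPM in untreated, 2908 to 3549 CPM in control and 1638 to 2474 CPM in RVO pools. Of these 8 genes, 4 were called lower and 1 higher after RVO. After control treatment 4 were called lower and 2 higher, with a median log2 fold change of -0.15, so that the list was split. The largest member of the sum was Glul, with means of 2552 CPM in untreated, 1264 CPM in control and 659 CPM in RVO pools. Within the RVO group the sum was lowest in replicate 1 and highest in replicate 2, which is also the order of Cp, Serpina3n and A2m. This order was not particular to Mueller cells. It also held for the sums of astrocyte, microglia, endothelial, pericyte and fibroblast, retinal pigment epithelium, hepatocyte and lens markers. Neutrophil and monocyte sums were lowest in replicate 2, and the rod sum was lowest in replicate 3. Astrocyte markers summed to 42.6 to 46.0 CPM in untreated pools, 286 to 465 CPM in control pools and 255 to 373 CPM in RVO pools. Of these genes 2 of 4 were called higher in each laser group against untreated retinas and 0 of 4 between RVO and control. The sums rested mostly on Gfap and Aldh1l1. S100b went the other way, with means of 4.90, 8.48 and 9.30 CPM in RVO, control and untreated pools, and Pax2 had means of 1.19 CPM or less. Microglia markers fell to 31.3 to 52.1 CPM after RVO and 49.9 to 58.4 CPM after control treatment from 94.3 to 145 CPM, with 4 of 6 called lower in both comparisons.

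**Figure D4:**
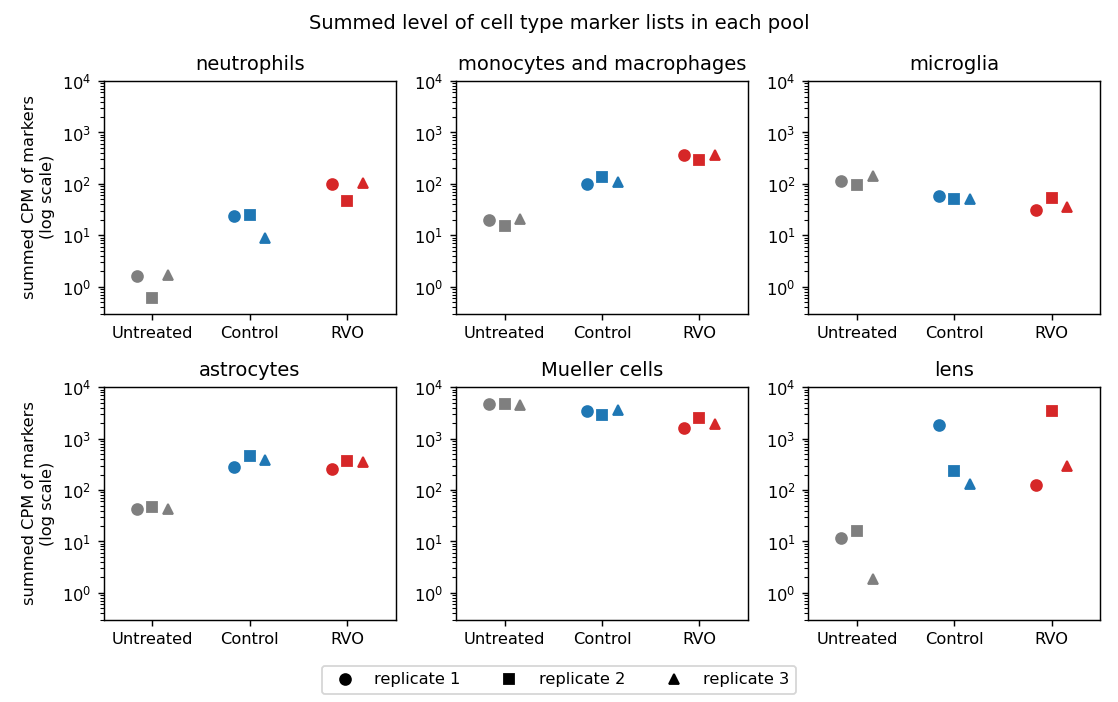
Summed CPM of marker genes of 6 cell types in each pool, on a log axis, with symbols for replicates. Neutrophil and monocyte markers are highest in RVO pools, Mueller cell and microglia markers are highest in untreated pools, and the lens sum is highest in RVO replicate 2 at 3406 CPM.

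Compared per kilobase of annotated exon, the order of the 9 genes changed between the groups. The length was that of the merged exons of all annotated transcripts of a gene. It was 9566 bases from 16 transcripts for Cp, 2623 from 6 for Lcn2 and 2064 from 1 for Serpina3n. Which transcripts were expressed was not tested. Genes with several transcripts may thus be understated, and the order of genes within a group may differ with other lengths. In untreated retinas Cp was first with 24.0 CPM per kb, followed by Serpina3n with 6.59, A2m with 2.77, Cd44 with 2.06, Lcn2 with 1.56, Ptx3 with 0.563, Steap4 with 0.308, Hp with 0.037 and Saa3 with 0. Each of these neighbours was separate over the 3 pools, except Hp and Saa3. In control pools the order was Serpina3n (141 CPM per kb), Cp (62.1), Lcn2 (43.8), A2m (24.2), Cd44 (13.9), Steap4 (3.85), Ptx3 (0.922), Hp (0.723) and Saa3 (0.192), where Cp and Lcn2, Lcn2 and A2m, and Ptx3 and Hp overlapped. In RVO pools Serpina3n (362 CPM per kb) and Lcn2 (180) led, before A2m (68.1), Cp (66.6), Cd44 (32.1), Steap4 (8.34), Hp (2.57), Ptx3 (1.93) and Saa3 (0.664), and only A2m and Cp, and Hp and Ptx3, overlapped. By this measure Lcn2 moved from the fifth place in untreated to the second in RVO retinas. In summed CPM the 9 genes reached 2445 to 2772 in RVO pools, 1186 to 1413 in control pools and 258 to 304 in untreated pools. Lcn2 provided 1.09% to 1.66% of the sum in untreated pools, 6.61% to 12.7% in control pools and 24.6%, 10.1% and 20.8% in RVO replicates 1, 2 and 3.

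Other genes of reactive astrocytes were compared with the 9, whose median log2 fold change was 4.72 after RVO (4.61 with Saa3 at its lower bound and Hp at its count ratio) and 3.36 after control treatment against untreated retinas, and 1.36 between RVO and control. Over all genes tested the medians were 0.0081, 0.0129 and 0.0192. The 8 other pan-reactive astrocyte genes were all called higher in both laser groups, with medians of 2.99 and 2.57. Of these, Cxcl10 and Aspg had 3 counts each over all untreated pools and passed the filter for low counts through laser-treated pools. A higher call against untreated retinas was thus close to fixed in advance for both. With both at their count ratios the medians were 3.05 and 2.64. Only Vim, which encodes the intermediate filament vimentin, was called between RVO and control (log2 fold change 0.90, edgeR, adjusted p = 0.0087). Gfap, the classical astrocyte filament, had 216 ± 50.1 (SD, n = 3), 296 ± 70.6 and 20.6 ± 0.235 CPM in RVO, control and untreated pools. Its log2 fold change was 3.38 after RVO and 3.83 after control treatment, and -0.46 ± 0.22 (SE) between RVO and control (edgeR, adjusted p = 0.134), a sign opposite to that of all 9 genes. Of the genes linked to an A1-type state of astrocytes, 9 of 11 were called higher in each laser group and 0 of 11 between RVO and control, with a median of 0.17. Among them H2-D1, which encodes a class I histocompatibility antigen, had a log2 fold change of 3.42 after RVO, 2.95 after control treatment and 0.46 between RVO and control. Of the A2-type genes other than Ptx3, 9 of 10 tested were called higher after RVO and 7 of 9 after control treatment. In RVO against control 2 of 10 were called, S100a10 (1.10) and the cytokine gene Clcf1 (1.55), with a median of 1.17. At an adjusted p under 0.05 the numbers between RVO and control were 4 of 8 pan-reactive genes higher, 3 of 11 A1-type genes higher and 1 lower, and 8 of 10 A2-type genes higher. These calls between RVO and control changed with single libraries too, as did those of all genes. Without RVO replicate 2 they were 3 pan-reactive genes higher, 3 A1-type genes higher and 1 lower, and 8 A2-type genes higher and 1 lower. Without any 1 of the other 5 libraries they were 0 in each list. Of all genes 2942 were called higher without RVO replicate 2, and 0 to 29 without each of the other libraries. These totals bear on this and the following lists alike. Whether the lists differ from each other was not tested.

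Most inducers and regulators of the acute-phase response were also higher in laser-treated retinas. Of 18 tested, 15 were called higher after RVO, and 13 of 16 after control treatment, with medians of 3.38 and 2.08 (3.44 and 2.08 with genes of 1 to 3 untreated counts at their count ratios). Il1b, Tnf and Osm had 3, 3 and 2 counts over all untreated pools. Where tested they passed the filter for low counts through laser-treated pools, so that their direction was close to fixed in advance. Cebpd, which encodes the factor C/EBP delta, had 228 ± 31.1 (SD, n = 3), 90.9 ± 22.4 and 5.14 ± 0.62 CPM in RVO, control and untreated pools, with log2 fold changes of 5.46 and 4.12 against untreated and 1.32 between RVO and control (edgeR, adjusted p = 9.608e-07, 1.652e-08 and 0.008599). Cebpb, for C/EBP beta, had log2 fold changes of 3.38, 2.04 and 1.33 in the same order, and was called in all 3 comparisons. Stat3 had 2.86, 2.11 and 0.74, and Socs3, the feedback inhibitor that STAT3 induces, 5.85, 4.59 and 1.25. Neither was called between RVO and control (edgeR, adjusted p = 0.01103 and 0.01021). The IL-6 family cytokine gene Lif was at 65.8 ± 15.1, 15.2 ± 2.28 and 0.972 ± 0.227 CPM and was called in all 3 comparisons, by 6.05, 3.92 and 2.11, whereas Il6 itself had 44, 27 and 2 counts in all over the 3 RVO, control and untreated pools and was not tested against untreated retinas. Between RVO and control 5 of 19 genes were called higher, namely Cebpb, Cebpd, Clcf1, Lif and Nfkbiz, and 15 of 19 at an adjusted p under 0.05. Leaving out RVO replicate 2 gave 15 and leaving out RVO replicate 1 gave 1, while 0 were called without RVO replicate 3 or any 1 of the control replicates.

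**Figure D5:**
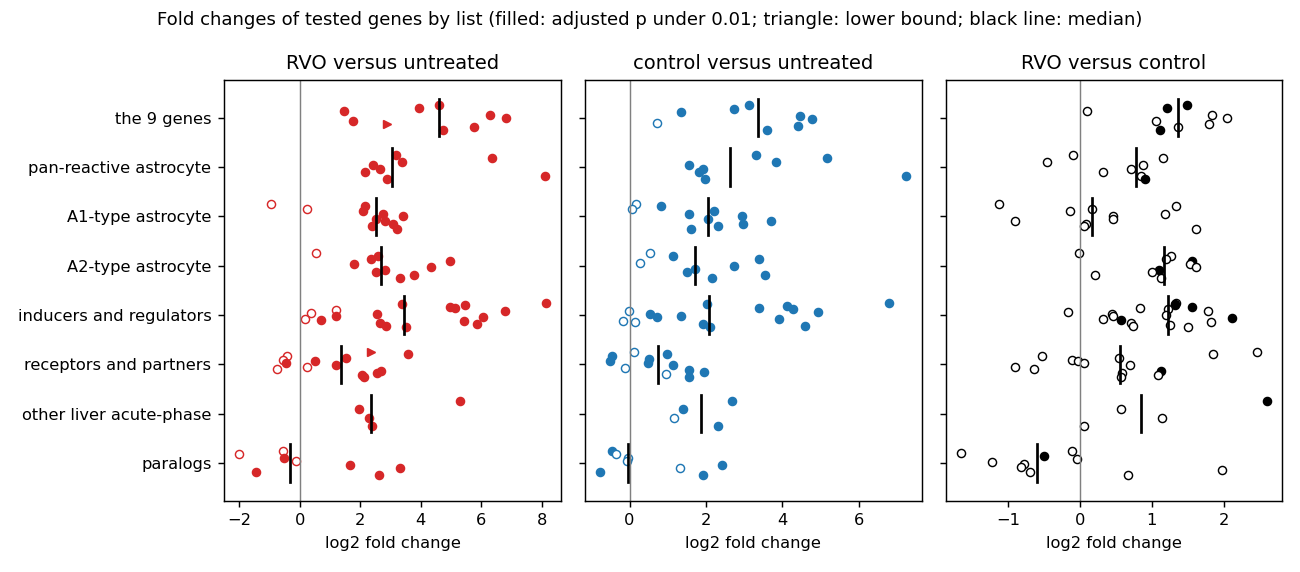
Log2 fold changes of tested genes of each list in the 3 comparisons. Filled symbols have an adjusted p under 0.01, triangles are lower bounds for genes without counts in untreated pools, genes with 1 to 3 counts there are at the log2 of their count ratio, and black lines are medians, which for the 9 genes are 4.61, 3.36 and 1.36.

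Of other acute-phase genes of the liver, 4 of 20 had enough counts for a test. C3, the central complement component, had 123 ± 43.0 (SD, n = 3), 20.2 ± 1.12 and 3.12 ± 0.20 CPM in RVO, control and untreated pools, and was higher in RVO than in control by 2.60 ± 0.25 (SE) on the log2 scale (edgeR, adjusted p = 0.005657). Fn1, which encodes fibronectin, and Serping1, the inhibitor of complement C1, were called higher in both laser groups, by 1.98 and 2.39 after RVO and by 1.40 and 2.32 after control treatment. Hpx, for the haem carrier hemopexin, was called after RVO, at 2.30 (edgeR, adjusted p = 0.005674), and differed by 1.17 after control treatment (adjusted p = 0.05947). Genes whose products fall in plasma during the acute phase were not called lower here. Of 3 tested 2 were called higher after RVO, Trf for transferrin by 2.56 and Rbp4 for retinol-binding protein by 2.56. After control treatment Trf was called, by 1.97, and between RVO and control Rbp4, by 1.57 (edgeR, adjusted p = 0.009891). Without RVO replicate 2 the calls between RVO and control were 4 and 2 genes higher in these lists. They were 1 and 0 when RVO replicate 1 was left out, and 0 in both lists when RVO replicate 3 or any 1 of the control replicates was.

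The receptors and partners of the 9 proteins were called in both directions. Of 14 tested, 9 were called higher and 1 lower after RVO, the median log2 fold change being 1.36, while after control treatment 7 of 12 tested were higher and 2 lower, the median being 0.74. Slc22a17, a receptor for lipocalin 2, had 75.2 to 146 CPM in RVO pools, 179 to 199 CPM in control pools and 76.6 to 97.8 CPM in untreated pools. It was thus raised after control treatment, by 1.14 ± 0.081 (edgeR, adjusted p = 2.409e-07), while its difference from untreated retinas after RVO was 0.26 ± 0.23 (adjusted p = 0.3391) and between RVO and control -0.90 ± 0.22 (adjusted p = 0.02119). Lrp2, which encodes megalin, another receptor for lipocalin 2, was called lower after RVO and control treatment, by -0.43 and -0.51. Mmp9, for a matrix protease that forms a complex with lipocalin 2, was called higher by 1.19 and 0.49. Slc40a1, for the iron exporter ferroportin, was not called in any comparison, with -0.74, -0.11 and -0.64.

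Lrp1, the receptor that clears alpha-2-macroglobulin, was called higher in both laser groups, by 0.51 and 0.52, with -0.03 between RVO and control. Cd163, the receptor for haptoglobin bound to haemoglobin, had 18, 10 and 7 counts in all in RVO, control and untreated pools and was not tested. Among receptors for serum amyloid A, Tlr2 and Tlr4 were called higher after RVO, by 2.54 and 2.06. Fpr2 had 92 counts in all in RVO pools and 0 in untreated pools, and was at least 5.16-fold higher over the floor of 3 counts per library (edgeR, adjusted p = 0.00102). It passed the filter for low counts through the RVO pools, so that this call was close to fixed in advance. Tnfaip6, whose product binds hyaluronan and pentraxin 3, was higher by 2.14 after RVO and 1.56 after control treatment. Spp1, which encodes the Cd44 ligand osteopontin, had 199 ± 16.4 (SD, n = 3), 90.6 ± 14.6 and 30.3 ± 1.37 CPM and was the only partner called between RVO and control, by 1.13 ± 0.13 (SE; edgeR, adjusted p = 0.006716). Has2, a hyaluronan synthase, rested on 71 counts in RVO pools, 16 in control pools and 3 in untreated pools, a ratio of 11.9 after RVO (95% counting interval 3.90 to 58.9). Like Fpr2 it passed the filter through the RVO pools. Between RVO and control the list had 4 genes higher and 2 lower without RVO replicate 2, and 0 called without any 1 of the other 5 libraries.

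Paralogs of the 9 genes were called in both directions. Of 24 listed, 8 could be tested against untreated retinas, of which 3 were called higher and 2 lower after RVO and 2 higher and 2 lower after control treatment. The median log2 fold change after RVO was -0.31. It depended on the filter, since without a filter on low counts it was 1.73, with 5 called higher and 3 lower. Lyve1 had 0.903 to 6.06 CPM in RVO, 8.91 to 9.85 CPM in control and 11.1 to 12.9 CPM in untreated pools. In the Steap family, Steap3 was higher after RVO and control treatment, like Steap4, by 2.61 and 1.93, and Steap1 was called after RVO, by 3.30, and not after control treatment, by 1.32 (edgeR, adjusted p = 0.01865). Steap2 fell from 112 ± 8.93 (SD, n = 3) CPM in untreated to 66.7 ± 2.10 CPM in control and 41.4 ± 12.4 CPM in RVO pools, with log2 fold changes of -1.45 after RVO and -0.77 after control treatment (edgeR, adjusted p = 0.0002719 and 6.943e-07). Heph, for the ferroxidase hephaestin that is related to ceruloplasmin, was lower by -0.45 after control treatment and differed by -0.55 after RVO (edgeR, adjusted p = 0.002858 and 0.07076). Nptx1, for a neuronal pentraxin, was lower by -0.51 after RVO and by -0.50 in RVO than in control, where it was the only paralog called. In that comparison 2 paralogs were higher and 3 lower without RVO replicate 2, and 0 were called without any 1 of the other 5 libraries. The liver genes Saa1, Saa2 and Saa4 and the A2m relatives Pzp, Mug1 and Mug2 did not have enough counts for a test in any comparison. With scaling by library size only, the median of all genes was shifted by 0.22 in the comparison of RVO with untreated retinas and by 0.19 in that of control with untreated retinas, which bears on changes as small as those of Lrp1, Lrp2, Heph and Nptx1.

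The genes whose levels followed those of the 9 most closely over all 9 pools were found by Pearson's r of log2 (CPM + 1). They were sought among the 14973 other genes (14974 for Saa3) with a mean of at least 1 CPM. The added 1 weighs on the r values of genes at few CPM, such as Saa3, Hp and Ptx3. These values describe pools that fall into 3 groups and are given without a test. Lcn2 was closest to Akt2, Steap4 and Hn1 (r = 0.997 for each), and for Steap4 the values of Gnl1 (0.999) and Fn1 (0.997) are given. Cp was closest to S100a6 (0.997), Morf4l1 and Tubb2b, and Hp to Lsp1 (0.994), Slc25a20 and Nav2. Serpina3n was closest to Tmem176a, Col4a1 (0.996 for both) and Plcb3, and A2m to Wsb2 (0.999), Gm16174 and Vcam1. For Saa3 the closest were Hilpda (0.997), Xbp1 and Hbb-bs, for Ptx3 Gar1 (0.994), Rpl13a and Hadh, and for Cd44 Vim (0.999), Lin7b and Sec22c. Among the 9 genes themselves r ranged from 0.784 for Cp and Ptx3 to 0.997 for Lcn2 and Steap4.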

How the data were processed

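RNA was measured in 3 RVO, 3 control and 3 untreated samples, each a pool of 6 retinas from separate mice. The authors aligned single reads of a stranded poly-A library with STAR 2.5.2b (mouse build GRCm38, annotation Gencode vM11), assigned them to genes with featureCounts of Subread 1.5.1 and deposited raw read counts, which were used here. Handling of reads matching several genes and the strand setting are not given in the sources used here. Exon coordinates and lengths came from GENCODE vM21 on the same build. Names of 92 spike-in controls had 0 counts. No column of the table was left unused.

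Testing used edgeR 4.0.16 in R 4.3.3, with a fit for each pair of groups, filterByExpr, TMM scaling and the quasi-likelihood test. Benjamini-Hochberg adjustment was made over all genes tested, with 0.01 as the threshold, as in the study, and the scripts were tested on simulated data. CPM used TMM factors of all 9 samples. Counting intervals (95%, exact) and floors (3 counts per library) cover counting error only, and total counts are given with the results. RVO and control retinas were fellow eyes, but the labels do not say that pools of the same number came from the same mice, and p-values measure the spread between pools. The 9 genes and the lists were chosen with earlier results of these data known. Genes named are the 9, up to 4 called genes per list with the highest mean CPM, partners and paralogs, and the 3 genes with the most similar levels, of which 1 is not reported here. Cebpb and Il6 lie outside this rule and were named after their values were seen. Alternatives were RLE size factors, library size only, DESeq2 1.42.0, other filters, 1 fit to all 9 samples, a block for the replicate number, a threshold of 0.05 and leaving out single samples. Imaging, histology and qPCR were not used here.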

Additional observations from a re-analysis of the deposited data

How the results depend on the processing

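All 9 genes were called higher in RVO than in untreated retinas under every alternative, except that Saa3 was not tested with a minimum mean of 1 CPM, which left 8. Between control and untreated retinas the count was 6 to 8 against 7, and 7 to 8 with 1 sample left out. Between RVO and control retinas 3 genes were called, but 2 with RLE size factors and with a minimum mean of 1 CPM, 5 with library size only, 8 with DESeq2, with no filter on low counts, with a fit of all 9 samples and at an adjusted p under 0.05, and 0 to 8 with 1 sample left out (8 without RVO replicate 2 and 0 without each of the other 5). With the replicate block it was 0, where 0 of all genes were called and 7227 had an unadjusted p under 0.05. The replicate numbers were not shown to pair the pools, since deviations of samples with the same number correlated by -0.181 to 0.0886 for RVO and control. The block changed no call of the 9 genes in the other comparisons. No log2 fold change of the 9 genes reversed under any alternative tried. Fitted values of Hp without untreated replicate 1 were 9.42 after RVO and 7.40 after control treatment, against 6.13 and 4.26, because the remaining untreated counts were 0. With library size only, the median over all genes became 0.22 for RVO and 0.19 for control against untreated retinas, and the share of calls that were higher went from 52.7% to 68.5% and from 51.9% to 70.4%. Between RVO and control 456 genes were called higher and 107 lower (81.0% higher), against 400 in all with RLE size factors, 892 with library size only, 4043 with DESeq2 (46.5% higher), 3309 without a filter and 3853 in the fit of all 9 samples. In the same comparison 6257 genes were called in all without RVO replicate 2, and 0 to 29 without each of the other samples. Depth limits Hp and Saa3, which had at most 2 counts in an untreated pool.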
